A study of Mus musculus with 16 samples.

Results

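The Input libraries of an RNA-immunoprecipitation (RIP) experiment record the mRNA levels of wild-type (WT) and CPEB4 knockout (KO) bone marrow-derived macrophages (BMDMs) before any transcript was selected with the anti-CPEB4 antibody. They make up 8 of the 16 samples. The samples are sequencing lanes, and the authors summed the 2 lanes of each library, so the 8 samples correspond to 4 libraries. These are WT untreated, KO untreated, WT with LPS and KO with LPS, each present once. All 14925 genes with a symbol were members, and none was selected by its value. Each gene was represented by the 3′-UTR with the most reads over the 8 libraries, and its ratio is the log2 of WT over KO reads after 1 read was added and each library was scaled to its summed 3′-UTR reads. A positive ratio means higher in the WT.

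Both genotypes came from adult mice of a mixed C57BL/6J and 129 background, as labelled. Femoral marrow was grown for 7 days with L-cell conditioned medium, which supplies M-CSF, and the macrophages were left untreated or given LPS, a component of the bacterial outer membrane, at 10 ng/ml for 9 h. The cells were cross-linked with formaldehyde, then lysed and sonicated, and ribosomal RNA was depleted from the Inputs. The WT libraries carry the number 76 and the KO libraries the number 73, which the labels do not explain. The KO mice of this experiment were Cpeb4-/-, not the myeloid-specific line that the study also bred, and the labels name no other allele in either genotype. With 1 library a group there was no replicate check of any difference. A difference between genotypes, between mice and between cultures cannot be told apart, and because untreated and LPS cells came from the same numbered source, a difference seen in both treatments is not thereby replicated. In bulk RNA, fewer cells of a type and less RNA per cell cannot be told apart either.

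CPEB4 belongs to a family of RNA-binding proteins that bind U-rich sites in 3′-UTRs called cytoplasmic polyadenylation elements, or CPEs. Bound mRNAs can be held silent or, after polyadenylation of their tails, be stabilised and translated. LPS is sensed by TLR4, which drives transcription of cytokine, chemokine and interferon-stimulated genes through NF-κB, AP-1 and IRF factors, followed by genes such as Socs3 and Zfp36 that end the response.

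The Inputs held 929054 (WT) and 1325968 (KO) 3′-UTR reads in untreated cells and 1897360 (WT) and 1502378 (KO) with LPS, so that 1 read was worth between 0.527 and 1.08 CPM (reads scaled to the 3′-UTR total of the library). A pair needed at least 50 reads for a gene to be tested, which 4519 genes met untreated, 5180 met with LPS and 4129 met in both. The remaining genes have no call. Defining macrophage genes were read in all 4 Inputs, among them Csf1r, the receptor of M-CSF, with 611, 762, 676 and 518 reads in the order WT untreated, KO untreated, WT with LPS and KO with LPS. The 13 macrophage markers in the tables summed to 6370 and 4880 CPM in untreated WT and KO cells and to 3960 and 4060 with LPS. Markers of T and NK cells, fibroblasts, mast cells and erythroid cells summed to at most 47.3 CPM in any Input, and S100a8 of neutrophils was at 0 in all 4. Osteoclast markers summed to at most 65.6 CPM, and B cell and dendritic cell markers to at most 21.1 CPM. Many markers are missing from the tables, which hold 4 of 10 for T and NK cells, 3 of 8 for mast cells and 5 of 11 for erythroid cells. Low sums therefore say little about such cells. The 5 neutrophil markers in the tables summed to 42.0, 55.1, 85.9 and 128 CPM, nearly all of it Csf3r, and were higher in the KO within each treatment. The labels give no sex, and reads of the Y-linked Ddx3y were present in every Input (8, 17, 26 and 14 in the same order).

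The targeted gene was lower in both KO Inputs. The 3′-UTR of Cpeb4 (mm10 chr11:31931533-31935634) had 130 CPM in the WT and 52.0 in the KO untreated, from 121 and 69 reads. With LPS the values were 136 and 52.6, from 258 and 79 reads. The log2 ratio was 1.31 (exact 95% counting interval 0.89 to 1.77) untreated and 1.36 (1.002 to 1.75) with LPS, and the difference of the ratios was -0.04 (95% counting interval -0.60 to 0.51). Counting intervals cover the sampling of reads only, since PCR reads without molecular identifiers are not independent molecules. The WT level was 2.49-fold and 2.56-fold the KO level, so the sizes were alike, and the KO still gave reads over this region. Which part of the gene is deleted was not analysed here.

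Most mRNAs differed little between WT and KO before immunoprecipitation. The median ratio was -0.02 untreated and 0.04 with LPS, and 90.0% and 89.3% of the tested genes lay within 1.5-fold. A gene was called where its ratio passed 2-fold. In untreated cells 18 genes were called higher in the WT (0.398% of those tested) and 52 higher in the KO (1.15%). With LPS 49 genes were called higher in the WT (0.946%) and 34 higher in the KO (0.656%). The LPS split depended on the scaling and was 37 against 45 with median-of-ratios factors and 37 against 44 with the authors' library totals. The exact counting interval left out equality for all 70 calls untreated and all 83 with LPS. The read minimum and the 2-fold threshold already bring this about, so it is not a check of the calls. Called genes were read less than others, with a median of 68 and 66.5 reads a pair for the WT-higher and KO-higher calls untreated against 146 over all tested genes, and 90 and 94.5 against 176 with LPS.

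Few genes were called in both treatments. Among the 4129 genes tested in both, 2 were called higher in the WT in both (0.0484%), 3 were called higher in the KO in both (0.0727%) and 0 were called in opposite directions. The WT-higher pair made up 11.1% of the untreated list and 4.08% of the LPS list, and the KO-higher genes made up 5.77% and 8.82%. Past 1.5-fold the numbers were 19 genes higher in the WT (0.46%) and 25 higher in the KO (0.605%). Over the 4129 genes the untreated and LPS ratios had a Spearman correlation of 0.13. Genes are not independent, and each ratio shares its source with the other, so this describes the libraries.

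**Figure D1:**
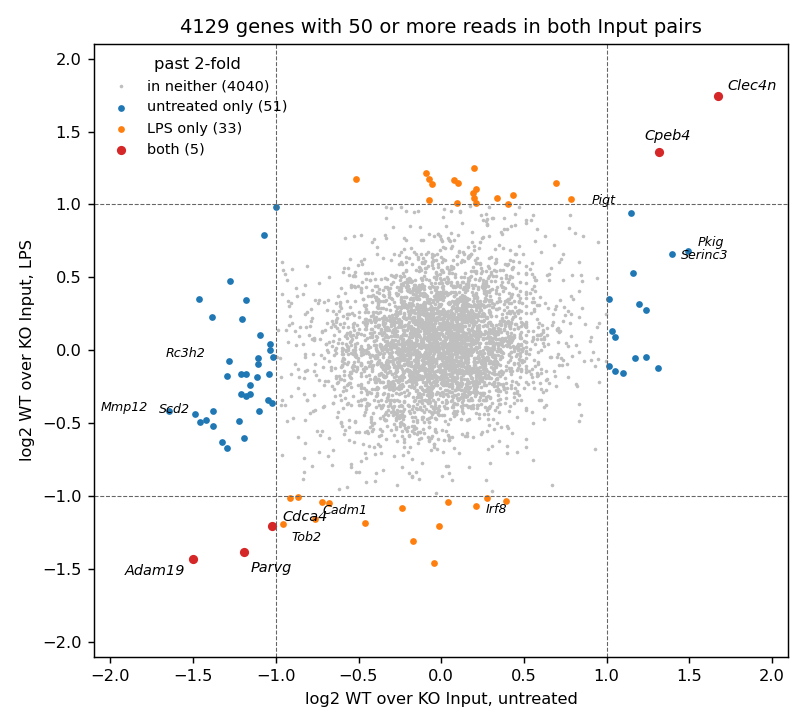
Log2 WT over KO Input ratio of each gene in untreated cells (x axis) and with LPS (y axis) for the 4129 genes with at least 50 reads in both pairs. Dashed lines mark 2-fold, and colours show genes past it in untreated cells, with LPS or in both. The 5 genes in both are Clec4n and Cpeb4 (top right) and Adam19, Parvg and Cdca4 (bottom left), and no gene lies past the lines in opposite corners.

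Besides Cpeb4, the gene called higher in the WT in both treatments was Clec4n, which encodes the fungal-sensing lectin receptor Dectin-2. It had 37 WT and 16 KO reads untreated, and 88 and 20 with LPS. Its ratios were 1.67 (0.84 to 2.67) and 1.75 (1.09 to 2.58). Thus both KO libraries lay below both WT libraries when scaled (12.1 and 13.3 against 39.8 and 46.4 CPM), and LPS changed the level little in either genotype. In the RIPs it had 21 and 5 reads untreated, under the minimum, and 43 and 7 with LPS (RIP ratio 0.94).

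The genes called higher in the KO in both treatments were Adam19, Parvg and Cdca4. Adam19, a metalloprotease that sheds membrane proteins, had 23 and 96 reads untreated and 29 and 63 with LPS, with ratios of -1.502 (-2.27 to -0.88) and -1.43 (-2.14 to -0.80). Parvg, a parvin of haematopoietic cells that links integrins to actin, had 52 and 172 reads and then 32 and 67, with ratios of -1.19 (-1.69 to -0.76) and -1.38 (-2.06 to -0.77). Cdca4, a regulator of E2F-dependent transcription, had 31 and 92 reads and then 62 and 114, with ratios of -1.03 (-1.69 to -0.45) and -1.20 (-1.69 to -0.76). With median-of-ratios factors Cdca4 came to -0.99 untreated and was then called with LPS alone. Within each treatment the KO lay above the WT for all 3 genes, while the levels of Adam19 and Parvg were lower with LPS than without in both genotypes (for Parvg 16.9 against 56.0 CPM in the WT and 44.6 against 130 in the KO). Adam19 also lies on chromosome 11, like Cpeb4, with its 3′-UTR starting at 46143846.

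Several genes passed 2-fold in one treatment and 1.5-fold in the same direction in the other. Higher in the KO were Tob2, a member of the antiproliferative BTG/TOB family (104 and 290 reads untreated, 125 and 227 with LPS, ratios -0.96 and -1.19), and Cadm1, a cell adhesion molecule (223 and 541, then 54 and 96, ratios -0.76 and -1.16). Abcg1, which exports cholesterol from macrophages, followed with 73 and 198 reads and then 39 and 63 (ratios -0.91 and -1.01). Higher in the WT were Serinc3, a multipass membrane protein that restricts retroviruses (242 and 131 reads, then 159 and 79), Pkig, an inhibitor of protein kinase A (74 and 37, then 96 and 47), and Pigt, a subunit of the GPI transamidase (159 and 102, then 212 and 87). Their ratios were 1.39 and 0.66, 1.49 and 0.68, and 1.15 and 0.94. For Serinc3 and Pkig the ratio was larger untreated than with LPS, by 0.73 (0.24 to 1.22) and 0.82 (0.06 to 1.57). For Tob2, Cadm1, Abcg1 and Pigt the interval of the difference included 0.

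**Figure D2:**
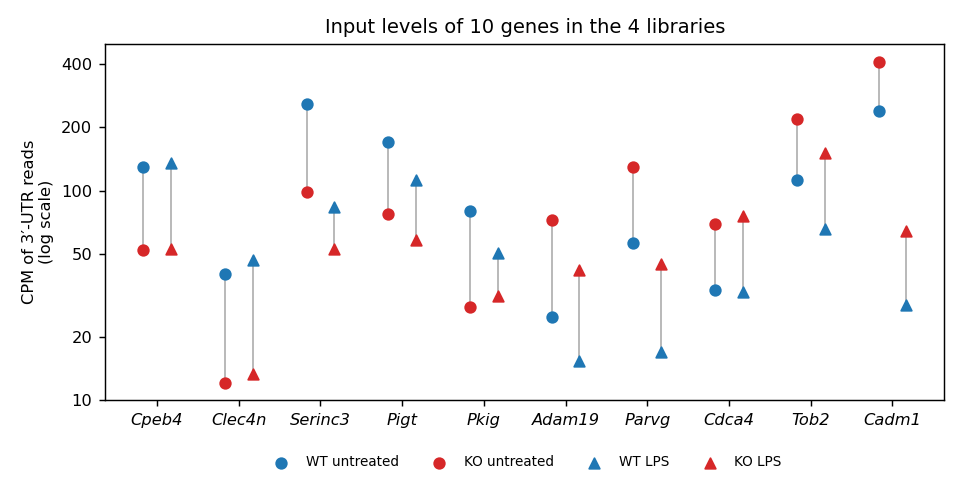
CPM (log scale) of 10 genes in the 4 Inputs. Circles are untreated and triangles LPS libraries, blue is WT and red KO, and grey lines join the 2 libraries of a treatment. In the first 5 genes the WT lies above the KO in both treatments, as for Cpeb4 at 130 against 52.0 and 136 against 52.6, and in the last 5 the KO lies above the WT.

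Serinc3, Pkig and Pigt are neighbours on chromosome 2, a feature noticed after the values were seen. The 3′-UTR of Serinc3 lies at mm10 chr2:163623272-163625440. Within 2.5 Mb of it the tables hold 61 genes, of which 21 were tested in both treatments. Of the 19 genes that passed 1.5-fold in the WT direction in both treatments, 4 lie here, namely Serinc3, Pkig, Pigt and the nucleotide sugar transporter Slc35c2 (105 and 84 reads untreated, 72 and 37 with LPS). When the genome was tiled in 2 Mb windows, 2 of 905 windows with a tested gene held 2 or more such genes, and both are on this stretch (162 to 164 and 164 to 166 Mb). The tiling used the same ratios that made the stretch noticed, so it is not a separate check. The windows held 4 and 16 tested genes, and a window with more genes has more room for 2. Their medians were 1.17 and -0.14 untreated and 0.58 and 0.09 with LPS. Slc13a3, a transporter of citric acid cycle intermediates, lies 1.78 Mb from Serinc3 and had 5 and 0 reads untreated and 108 and 8 with LPS, the largest ratio of all tested LPS genes (3.26, 2.39 to 4.67). Neighbours differed among themselves. In the WT direction in both treatments were also Ttpal, next to Serinc3 (0.94 and 0.49), Dbndd2, next to Pigt (0.80 and 0.35), and Trp53rka (0.34 and 1.04). Of the 21 genes, 8 had ratios above 0 in both. Over all genes tested in both treatments 48.8% were above 0 untreated and 55.4% with LPS. The share above 0 in both was not counted, so the 8 are not read as an excess. Ywhab had ratios of 0.09 and 0.02, Sdc4 0.24 and -0.57, and Ctsa -0.27 and -0.47, and the median over the 21 genes was -0.12 untreated and 0.27 with LPS. Around Cpeb4 itself, 47 other genes have their 3′-UTR within 5 Mb. Of the 7 tested untreated and the 10 tested with LPS, 0 were called, with medians of -0.30 and 0.06.

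**Figure D3:**
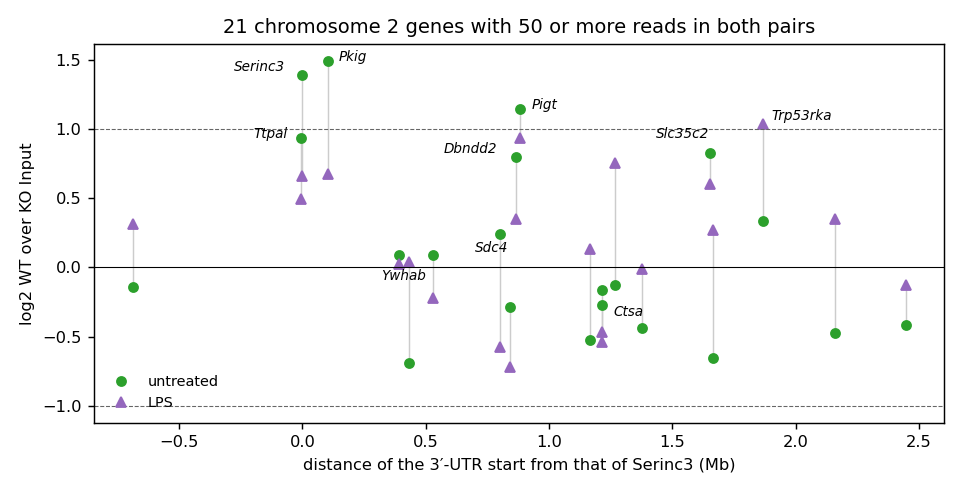
Log2 WT over KO Input ratio of the 21 genes tested in both treatments, against the distance of their 3′-UTR start from that of Serinc3 in Mb. Green circles are untreated and purple triangles LPS, and dashed lines mark 2-fold. Serinc3, Pkig, Pigt and Slc35c2 lie above 0 by more than 1.5-fold in both, while neighbours such as Ywhab (0.09 and 0.02) and Ctsa (-0.27 and -0.47) do not.

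Of the genes called higher in untreated KO cells with at least 100 reads, Scd2, a stearoyl-CoA desaturase, had 23 WT and 91 KO reads (-1.43, -2.20 to -0.80). Rc3h2, or Roquin-2, which destabilises cytokine mRNAs, had 41 and 145 (-1.28, -1.85 to -0.80), and the splicing factor Srsf9 had 25 and 85 (-1.21, -1.96 to -0.59). Cpeb2, a paralog of Cpeb4 that binds the same elements, had 33 and 107 reads (-1.15, -1.79 to -0.61). Acsl4, which activates long-chain fatty acids, had 33 and 99, and Nbeal1 had 38 and 113. With LPS none of these passed 1.5-fold, and the untreated ratio was lower than the LPS ratio beyond counting error for each. These genes were picked by their untreated ratio, which also enters the difference, so a difference of this sign was favoured in advance. The difference was -1.21 (-1.86 to -0.57) for Rc3h2, -1.04 (-1.77 to -0.31) for Nbeal1, -0.95 (-1.63 to -0.27) for Scd2, -0.91 (-1.65 to -0.18) for Srsf9, -0.88 (-1.51 to -0.25) for Acsl4 and -0.86 (-1.58 to -0.13) for Cpeb2.

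Further untreated calls on fewer reads, named after their values were seen, were Rnd3, Ccr2, Ak1, Tk1 and Vim, and Mmp12 was called as a member of the matrix and surface list. Rnd3 had 7 WT and 69 KO reads (-2.62, -4.16 to -1.67), the largest ratio among the 4519 genes with at least 50 untreated reads. Ccr2, the receptor of the monocyte chemokine CCL2, had 14 and 67 reads (-1.67, -2.69 to -0.90), and with LPS it had 3 and 14. Ak1, an adenylate kinase, had 8 and 44 reads and with LPS 2 and 26. The S-phase enzyme Tk1 had 9 and 42, and the intermediate filament gene Vim had 10 and 44. The macrophage elastase Mmp12 had 12 and 57 (-1.64, -2.77 to -0.82). For Rnd3, Ccr2, Ak1, Tk1 and Vim the LPS pair was under the read minimum, so they have no call there. In all, 13 of the 52 KO-higher genes could not be tested with LPS, 3 were called in both, and of the other 36 the interval of the difference between treatments left out 0 for 23. These genes, too, were picked by the untreated ratio that enters the difference. Among the 39 tested with LPS, 29 had a ratio below 0 there (74.4%, against 44.6% of all genes tested in both), and the median was -0.24.

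The KO-higher genes of untreated cells had AT-rich 3′-UTRs. Their median GC content was 36.8% against 46.5% over all tested genes, and 34 of the 52 lay in the lowest of 5 equal GC bins (65.4%). The ratio itself moved with GC content, with a median of -0.26 in the lowest bin and 0.06 in the highest, and a Spearman correlation of 0.29 over the 4519 genes. With LPS the lowest bin had a median of -0.07 and the highest 0.07. A predicted CPE, as listed by the authors for any 3′-UTR of a gene, was held by 39 of the 52 (75.0%) against 42.9% of all tested genes. Within the lowest GC bin the shares were 79.4% of 34 called genes and 72.3% of all 906. The KO-higher genes with LPS leaned the same way, with a median GC content of 41.5% against 46.4% over all tested genes. Of them 47.1% lay in the lowest GC bin, and 61.8% held a predicted CPE against 41.3%. When the median ratio of genes with like 3′-UTR length and GC content was subtracted, 36 genes were called higher in the untreated KO, 30 of them among the 52. Adam19, Cdca4, Parvg, Scd2, Srsf9, Mmp12, Rnd3 and Ccr2 remained past 2-fold. Cpeb2 came to -0.86, Rc3h2 to -0.99, Acsl4 to -0.78 and Nbeal1 to -0.74.

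**Figure D4:**
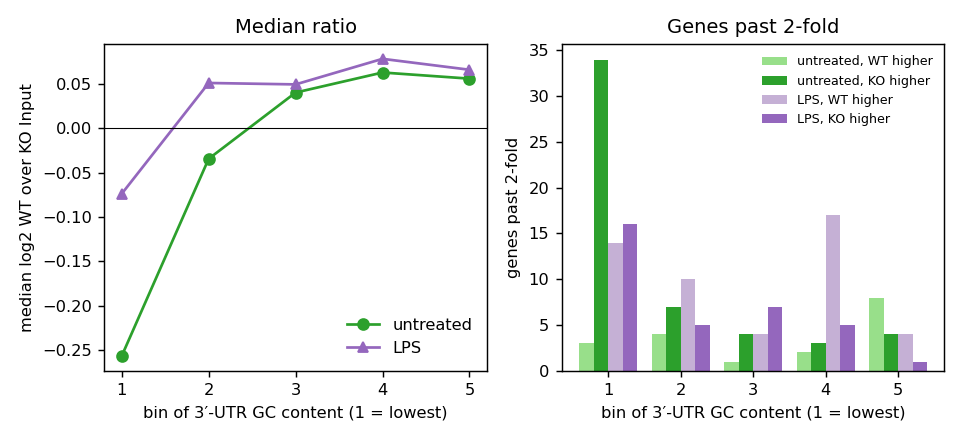
Left, median log2 WT over KO Input ratio in 5 equal bins of 3′-UTR GC content (bin 1 is the lowest) for untreated (green) and LPS (purple) pairs. Right, number of genes past 2-fold in each bin, by treatment and direction. The untreated median is -0.26 in the lowest bin, which also holds 34 of the 52 genes called higher in the KO.

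Fewer genes were higher in untreated WT cells, and most had short 3′-UTRs (median 704 bases against 1648). Besides those on chromosome 2, Mcfd2, a cargo receptor of the early secretory pathway, had 108 WT and 74 KO reads (1.05, 0.62 to 1.51), and the selenoprotein gene Sepw1 had 101 and 70 (1.04, 0.59 to 1.503). Sepw1 came to 0.94 after subtraction of length and GC bins, under 2-fold. With LPS their ratios were 0.09 and 0.14, and the differences between treatments were 0.96 (0.42 to 1.505) and 0.90 (0.39 to 1.41). Of the 17 WT-higher genes tested with LPS, 2 were called there, and of the other 15 the interval of the difference left out 0 for 10. Here, too, the choice by untreated ratio favoured such a difference.

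With LPS the genes higher in the WT included inflammatory cytokines and chemokines. Of 32 listed genes 31 are in the tables, 20 were tested with LPS, 5 were called higher in the WT (all genes 0.946%) and 0 higher in the KO (all genes 0.656%), and 15 of the 20 ratios were above 0. The median was 0.42, against 0.04 over all genes tested, and from 0.35 to 0.44 with other scalings or after subtraction of length and GC bins. Ccl22, which attracts regulatory T cells, had 263 WT and 45 KO reads (2.18, 1.75 to 2.70). Il12b, the shared p40 chain of IL-12 and IL-23, had 391 and 88 (1.80, 1.48 to 2.17), and Il1a had 750 and 206 (1.52, 1.303 to 1.76). Csf3, which encodes the granulocyte growth factor G-CSF, had 105 and 23 (1.81, 1.19 to 2.57), and the neutrophil chemokine Cxcl1 had 52 and 13 (1.58, 0.77 to 2.66). All of these had 0 or 1 reads in both untreated Inputs, so no genotype comparison can be made there.

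The other 15 tested cytokines of the list were not called, and 5 of them had ratios below 0. Cxcl2 had 401 and 168 reads with LPS (0.91, 0.66 to 1.19) and Tnf had 828 and 465 (0.49, 0.33 to 0.66). Il1b, with 983 and 764 reads, had a ratio of 0.03 (-0.11 to 0.17), and Ptgs2, or cyclooxygenase-2, had 723 and 474 (0.27, 0.10 to 0.44). The lowest ratio was that of Ccl5, picked out for this, at -0.31 (-0.47 to -0.15), from 657 and 645 reads, so it was higher in the KO beyond counting error. Il6 had 11 and 7 reads and was not tested.

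**Figure D5:**
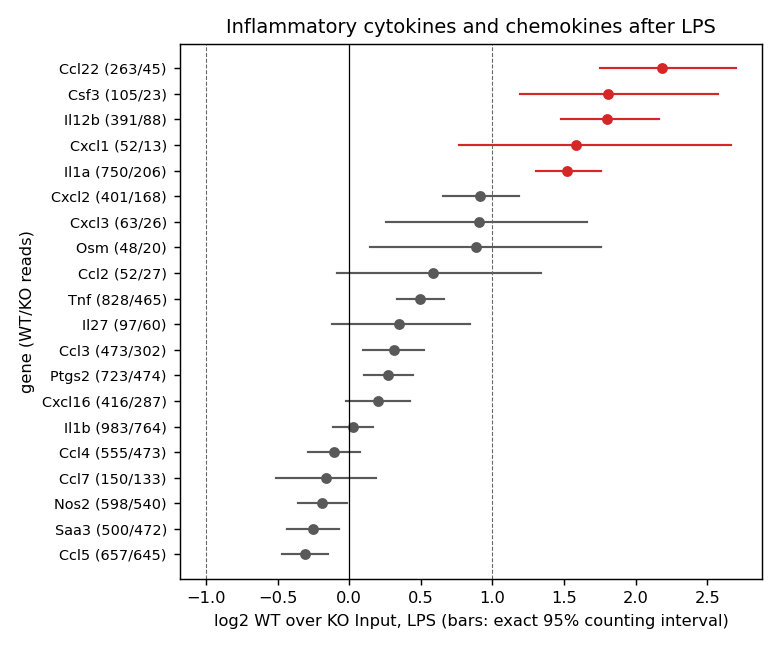
Log2 WT over KO Input ratio with LPS of the 20 inflammatory cytokine and chemokine genes with at least 50 reads in the pair, with WT and KO reads in parentheses. Points are ratios, bars exact 95% counting intervals, dashed lines 2-fold and red the genes past it. Ccl22, Csf3, Il12b, Cxcl1 and Il1a lie above 2-fold in the WT direction, and Ccl5 is lowest at -0.31.

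Of the 49 genes called higher in the WT with LPS, 24 rose by at least 2-fold with LPS in the WT (49.0%) and 19 in the KO (38.8%). Over all genes tested the shares were 17.3% and 16.5%. The 49 genes were picked for a high WT LPS Input relative to the KO, and the WT change uses that library again. The 29 under the untreated minimum passed it only with LPS, so the shares are partly set by the choice of genes. Cxcl11, a chemokine that acts on CXCR3, had no untreated reads and 116 and 10 reads with LPS (3.07, 2.27 to 4.30). The other CXCR3 ligands, members of the interferon-stimulated list named here after their values were seen, were higher in the KO beyond counting error without passing 2-fold. Cxcl10 had 757 and 905 reads (-0.59, -0.74 to -0.45) and Cxcl9 had 169 and 207 (-0.63, -0.93 to -0.33). Shisa3 had 195 and 58 (1.40, 0.98 to 1.86), and the scavenger receptor gene Marco had 116 and 36 (1.32, 0.80 to 1.93). Examples named after their values were seen included the myeloid surface receptor genes Trem1 (232 and 76 reads), Pilra (300 and 108), Lilrb4a (125 and 40) and Clec5a (94 and 36), with ratios of 1.26, 1.13, 1.28 and 1.02. Of amino acid transporters, also named afterwards, the cystine transporter gene Slc7a11 had 819 and 313 (1.05, 0.86 to 1.24), and the arginine transporter gene Slc7a1 had 161 and 57 (1.15, 0.72 to 1.62) after 105 and 140 untreated. The neutral amino acid transporter gene Slc38a2 had 67 and 23 (1.17, 0.50 to 1.96). Of the 49 genes, 29 could not be tested untreated, 2 were called there too, and of the other 18 the interval of the difference left out 0 for 8. Their choice by LPS ratio favoured such a difference.

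Because 5 cytokine genes were called in the same direction, promoters were searched for motifs in the RefSeq windows of 250 bases before to 50 bases after the start (GRCm38.p6). The motifs, on either strand, were GAAANNGAA for ISRE-like, GGGNNTTTC for κB-like and ACGTG for hypoxia elements. Of the 49 WT-higher LPS genes 40 have a window, and 2 held a κB-like motif (5.0%), 3 an ISRE-like motif (7.5%) and 10 a hypoxia element (25.0%). Over all genes tested with LPS the shares were 5.11%, 8.91% and 31.9%, and over all 32851 windows 4.36%, 8.56% and 19.6%. Of the 34 genes higher in the KO with LPS 21 have a window, with shares of 9.52% (2 genes), 4.76% (1 gene) and 47.6% (10 genes). Of the called cytokine genes, Cxcl1 (chr5:90890995-90891294, + strand) held a κB-like match on each strand and a hypoxia element, while Il12b (chr11:44399813-44400112, + strand), Il1a and Ccl22 held none of the 3. The windows of the first pair are shown to compare a promoter with matches, in capitals, and one without a match to these exact letters. Sites with other letters were not searched for, so a window without a match may still hold a site.
Cxcl1: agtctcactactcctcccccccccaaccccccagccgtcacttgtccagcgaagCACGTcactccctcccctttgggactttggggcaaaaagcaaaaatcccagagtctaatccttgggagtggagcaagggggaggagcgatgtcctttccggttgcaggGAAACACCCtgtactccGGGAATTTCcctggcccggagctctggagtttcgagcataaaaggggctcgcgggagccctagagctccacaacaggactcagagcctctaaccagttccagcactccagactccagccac
Il12b: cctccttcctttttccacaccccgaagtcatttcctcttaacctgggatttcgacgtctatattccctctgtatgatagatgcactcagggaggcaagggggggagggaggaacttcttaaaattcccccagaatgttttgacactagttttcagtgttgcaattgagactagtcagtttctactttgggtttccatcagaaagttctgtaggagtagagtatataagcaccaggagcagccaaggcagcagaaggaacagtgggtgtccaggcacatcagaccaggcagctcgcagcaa

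The genes called higher in the KO with LPS included 0 of the cytokine list. Ly6a, the surface antigen Sca-1 and an interferon-responsive gene, had 22 WT and 109 KO reads (-2.59, -3.38 to -1.97), the largest difference in this direction, and 5 and 16 untreated. Fgl2, a prothrombinase and immune regulator, had 98 and 225 (-1.53, -1.89 to -1.19), after 4 and 22 untreated. Irf8, a transcription factor of the macrophage lineage, had 308 and 511 (-1.07, -1.28 to -0.86). In untreated cells Irf8 had 215 and 265 reads, a ratio of 0.21, and the difference between treatments was 1.28 (0.95 to 1.61). Tmpo, a nuclear lamina protein gene, had 46 and 91 (-1.31) and also differed between treatments, by 1.14 (0.36 to 1.91). Serpina3g, a serine protease inhibitor induced by interferon-γ, had 58 and 101 (-1.13, -1.63 to -0.66) and no untreated reads. Sco1, a copper chaperone of cytochrome oxidase, had 51 and 88 (-1.11), and the transcription factor subunit gene Nfyb had 35 and 65 (-1.21). Of the 34 genes, 16 could not be tested untreated, 3 were called there too, and of the other 15 the interval of the difference left out 0 for 7. Again the choice by LPS ratio favoured such a difference.

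Most gene lists held few calls or none. At the shares of all tested genes (0.398% and 1.15% untreated, 0.946% and 0.656% with LPS), lists of this size would hold about 0 calls, so a count of 0 is near the background and is not a result about a list. Of 48 interferon-stimulated genes 46 were tested with LPS. Cxcl11 was called higher in the WT (all genes 0.946%), Ly6a and Iigp1, an immunity-related GTPase (25 and 44 reads), were called higher in the KO (all genes 0.656%), and the median was -0.06. The list's most-read members Rsad2 (2987 and 2446 reads) and Cmpk2 (1124 and 840) had ratios of -0.05 and 0.08. Untreated, 0 of 20 were called, with a median of -0.18. Of the receptor genes of type I interferon, Ifnar1 had ratios of -0.12 and -0.03 and Ifnar2 0.13 and -0.11.

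Among negative regulators of the LPS response 0 of 13 were called untreated and 0 of 19 with LPS, with medians of 0.07 and -0.07, which is at the background of calls. Nfkbie, an inhibitor of NF-κB, lay at the edge untreated (0.9986, from 41 and 29 reads) and passed 2-fold in the WT direction with TMM, median-of-ratios or library totals. Il1rn, the IL-1 receptor antagonist, had 109 and 110 reads untreated and 2845 and 2696 with LPS (0.50 and -0.26, difference 0.76, 0.37 to 1.15). Socs3 had 2056 and 1709 reads with LPS (-0.07, -0.16 to 0.02) and Socs1 280 and 229 (-0.05, -0.30 to 0.21). Dusp1 had 148 and 156 (-0.41, -0.75 to -0.08), Zfp36, which encodes the decay factor tristetraprolin, 595 and 644 (-0.45, -0.61 to -0.29), and Tnfaip3 743 and 506 (0.22, 0.05 to 0.38). Txnip had 427 and 654 reads untreated and 421 and 422 with LPS (-0.10 and -0.34). The LPS interval was -0.54 to -0.14 for Txnip and -0.34 to -0.18 for Il1rn. With LPS, Il1rn, Dusp1, Zfp36 and Txnip were thus higher in the KO beyond counting error without passing 2-fold, and Tnfaip3 was higher in the WT. Il10 had 16 and 22 reads with LPS and was not tested.

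Of glycolysis and hypoxia genes 0 of 25 were called untreated and 0 of 28 with LPS, again at the background, and the medians were 0.21 and -0.04. Hif1a had 558 and 525 reads with LPS (-0.25, -0.42 to -0.07), and its target Vegfa had 172 and 202 (-0.57, -0.87 to -0.27) after 77 and 99 untreated (0.15). Pfkfb3 had ratios of 0.17 and -0.12 and Pkm 0.21 and -0.15. Gapdh had 13 and 14 reads untreated and 55 and 43 with LPS (0.01). Of the 18 genes that the study examined around this experiment, which is not an independent choice, 2 of 16 tested with LPS were called, Cxcl1 and Il1a, and 0 of 8 untreated. Both were higher in the WT (all genes 0.946%) and are the same calls as in the cytokine list, so they are not a further result. The count of 0 untreated is at the background.

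In the CPEB family Cpeb2 was called higher in the untreated KO, as above, and Cpeb3 had 24 and 60 reads untreated (-0.77, -1.56 to -0.10) and 6 and 22 with LPS. Cpeb1 had at most 3 reads in any Input. Sterol and lipid genes had a median of -0.29 untreated, where Scd2 was the 1 call among 17, and of 0.01 with LPS, where Abcg1 was the 1 call among 20. Both were higher in the KO, where the shares over all genes were 1.15% untreated and 0.656% with LPS. Lpl had ratios of -0.26 and 0.16 and Srebf2 of -0.37 and -0.10. Of 9 cell cycle genes tested untreated 0 were called, 7 were below 0 and the median was -0.33. Ccnd1 had 540 and 750 reads untreated (0.04) and 229 and 314 with LPS (-0.79), and Mcm3 had 40 and 84 untreated (-0.54).

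Of matrix and surface genes 1 of 12 was called untreated, Mmp12, higher in the KO (all genes 1.15%). With LPS 1 of 16 was called, Marco, higher in the WT (all genes 0.946%), and Sdc3 had ratios of 0.03 and -0.19. No immediate-early or heat shock gene was called, with 11 and 16 tested, and Atf3 had ratios of -0.02 and -0.44 and Klf6 -0.09 and -0.16. The same was true of the MHC class II genes (1 and 3 tested) and the alternative activation genes (5 and 4 tested), in which Cd74 had ratios of -0.82 and -0.14, Igf1 -0.06 and -0.29 and Il4ra -0.12 and -0.47. Of genes known to differ between C57BL/6J and 129 mice, only Wdfy1 could be tested (0.09 and -0.43). Nnt, which is truncated in C57BL/6J mice, had 0, 11, 4 and 2 reads in the 4 Inputs.

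The RIPs, which did not enter the calls, were set beside them for the same genes. A RIP also holds more of an mRNA where the lysate does, so the 2 assays are not separate measures of its level. Of the 49 genes higher in the WT Input with LPS, 33 had at least 50 reads in the RIP pair, and 14 were higher in the WT RIP by 2-fold (42.4%, against 8.44% of 4433 genes) and 0 higher in the KO RIP (against 10.9%). Cxcl11 had 474 and 13 reads in the RIPs, a ratio of 3.57, Cxcl1 had 241 and 13 (2.60), and Slc7a11 had 1980 and 187 (1.88). Of the genes higher in the KO Input with LPS, 27 could be compared, with 1 higher in the WT RIP and 3 higher in the KO RIP.

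In untreated cells 8 of the 18 WT-higher genes could be compared, and 3 were higher in the WT RIP (37.5%, against 8.4% of 3798 genes). Of the 52 KO-higher genes 46 could be compared. In the RIPs 5 of them were higher in the WT and 5 higher in the KO (10.9% each, against 8.4% and 7.66%), and 32 of 46 had a RIP ratio above 0. Srsf9, for example, had 25 and 85 Input reads but 105 and 13 RIP reads (RIP ratio 1.09), while Scd2 had 31 and 23 RIP reads (-1.42). In both treatments' RIPs, 5 of 25 comparable WT-higher genes passed 2-fold in the WT direction, namely Cpeb4, Serinc3 and, named after their values were seen, Adgrl2, Sgms1 and Slc20a1, against 4.32% of 3816 genes. In the KO direction 3 of 57 did, Rnd3, Scd2 and Vim, against 4.59%. RIP ratios are relative to the 3′-UTR reads of each library, which made up a smaller part of the KO RIP libraries (27.5% and 32.1% of the authors' library totals) than of the WT RIP libraries (49.3% and 70.7%).

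A fit of all 4 Inputs with treatment and genotype as additive terms, in which the 1 residual degree of freedom stands in for replicates, compared the 2 sources and not the genotypes. edgeR's quasi-likelihood test called 8 genes higher in the WT (0.194% of 4129) and 17 higher in the KO (0.412%) at a Benjamini-Hochberg adjusted p under 0.05. The 5 genes called in both treatments were among them, and so were Tob2, Serinc3, Pigt, Cadm1, Pkig, Abcg1 and Scd2. The fit used the same reads as the calls, so this overlap is not a separate check of them.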

How the data were processed

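The deposited tables hold, for each Ensembl 3′-UTR region and each of 8 libraries, a read count that the authors made by aligning to mm10 with Bowtie2 (2.2.2 in the submitters' processing notes), removing duplicates and summing the 2 lanes; peaks came from MACS (1.4.2). The counts were the same in all 4 tables. The authors' RPKM were used only to recover library totals, and the deposited region lengths for length bins. The authors' own comparison columns (fold changes, p-values, peak scores of RIP over Input) were not used. Of 31117 rows, 495 without a symbol were left out of totals; they held 0.902% to 1.04% of the reads. The table columns of other series numbered 0.

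Reads in overlapping isoforms are counted more than once in the totals. Removal of duplicates can limit the reads of a short, densely read 3′-UTR, such as that of Il1b (459 bases). Its effect on the ratios was not tested, and the counting intervals do not cover it. The kit's strand handling in counting is not given in the sources used here, so overlapping genes on opposite strands may share reads. Ratios, exact (Clopper-Pearson) intervals and the read minimum are as described above. Differences between treatments have normal 95% counting intervals, not adjusted for the number of genes. The intervals also do not allow for the choice of genes by their ratio in a treatment. GC content was read from GRCm38.p6, the build of mm10. Python 3.11.15, scipy 1.17.1, R 4.3.3 and edgeR 4.0.16 were used, and the calls were tested on simulated data. The comparison, the gene lists and the tests were chosen with earlier results of these data known. Named genes were Cpeb4, the genes the study examined, the 10 largest calls per treatment and direction with at least 100 reads in the pair, genes called in both treatments, and in each list the called members (up to 6) and the 2 with the most reads; others are said to be named after their values were seen. The alternatives were other scalings, 0.1 reads added, minimums of 20 and 100 reads or none, 1.5-fold calls, calls that also need the interval to leave out equality, other regions per gene, length and GC bins, and the edgeR fit.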

Additional observations from a re-analysis of the deposited data

Results flagged for a closer look

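These genes were called in 1 treatment. The counting interval of the difference between their untreated and LPS ratios (untreated minus LPS, log2) left out 0. The difference has no replicate check and was not adjusted for the number of genes. Each call uses a ratio that also enters the difference, so the choice favoured such differences. The ratio was lower in untreated cells for Mmp12 (-1.23), Rc3h2 (-1.21), Nbeal1 (-1.04), Scd2 (-0.95), Srsf9 (-0.91), Acsl4 (-0.88) and Cpeb2 (-0.86). It was higher in untreated cells for Irf8 (1.28), Tmpo (1.14), Mcfd2 (0.96), Sepw1 (0.90), Pkig (0.82) and Serinc3 (0.73).

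Among the regions without a gene symbol, which entered no comparison, 85 could be tested untreated and 108 with LPS. A region at mm10 chr5:66018602-66019205 had 15 WT and 48 KO reads untreated (-1.10), and one at chr17:34996736-34997685 had 41 and 14 with LPS (1.15).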

How the results depend on the processing

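Counts are given as WT-higher untreated, KO-higher untreated, WT-higher LPS, KO-higher LPS, and then WT-higher, KO-higher and either in both treatments, where the values of the report are 18, 52, 49, 34, 2, 3 and 5. They were 82, 177, 140, 112, 4, 7 and 11 with a minimum of 20 reads, 6, 9, 23, 15, 1, 1 and 2 with 100 reads, and 1054, 920, 721, 1045, 97, 126 and 223 with no minimum, where most ratios rest on a few reads. At 1.5-fold they were 155, 299, 342, 214, 19, 25 and 44. With reads summed over the distinct 3′-UTRs of a gene they were 45, 93, 76, 52, 4, 5 and 9, while the genes tested rose to 5133 untreated and 5735 with LPS. The additive edgeR fit called 25 genes in either direction, and 159 genes higher in the WT and 216 higher in the KO at an unadjusted p under 0.05. Under TMM, median-of-ratios, the authors' library totals, 0.1 reads added, the longest 3′-UTR, and length and GC bins, all 7 counts stayed within 1.5 times the values of the report. Calls that also need the interval were the same calls, which the thresholds already bring about. No named gene that was called changed sign under these settings. Of the 17 named calls untreated, 12 stayed past 2-fold with length and GC bins (not Acsl4, Cpeb2, Nbeal1, Rc3h2 and Sepw1) and 15 with median-of-ratios (not Cdca4 at -0.99 and Nbeal1 at -0.995), and all 25 with LPS stayed past it under both.

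With LPS, median-of-ratios and the authors' totals turned the split from 49 against 34 to 37 against 45 and 37 against 44, so which direction held more calls depended on the scaling. No paired analysis was possible because each group has 1 library and so no replicate number to block on; the additive edgeR fit sets WT against KO within each treatment and has 1 residual degree of freedom. At these depths a pair of 50 reads gives an interval wider than 2-fold, so a gene that was not called is not shown to be equal.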
